A study of Mus musculus with 12 samples.

Results

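The 8 genes Agr2, Agr3, Muc1, Muc4, Muc15, Muc16, Muc20 and Tff3 were followed among the 19935 genes measured in anterior prostate of APT121 and wild type mice. They were taken by name, with the transcript cluster of highest mean used for each gene, and all 8 were measured, each by 1 cluster. The set was chosen by earlier results of these same arrays, that is on the log2 values of both genotypes, so the members' values in that comparison are a description and carry no test. The name of the set covers 1 brightly measured transcript, Agr2, and 7 whose wild type means lay below that of the median gene.

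The study compared male APT121 mice, whose prostates carry lesions of prostatic intraepithelial neoplasia (PIN), with wild type males, and both genotypes shared a mixed background of C57BL/6J with DBA/2 at generation F3. In APT121 mice the probasin promoter, active in prostate epithelium, drives T121, a truncated SV40 large T antigen known to inactivate the pRb family. Mice of both genotypes ate AIN93G diet from 3 weeks of age until tissue was taken at 12 weeks, and the labels name no further treatment. RNA of 2 mice was pooled for each Affymetrix Mouse Gene 1.0 ST array, so that 8 APT121 mice filled 4 arrays and 16 wild type mice filled 8. Below, an intensity is the deposited linear value of an array, and a difference is the mean log2 value of APT121 less that of wild type. Means are of log2 intensities ± SD, a difference of a gene outside the 8 is given ± SE, and its adjusted p is from limma with Benjamini-Hochberg adjustment over all genes.

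Mucins are large proteins whose serine and threonine residues carry dense O-linked glycans. Secreted mucins such as Muc2, Muc5ac, Muc5b and Muc6 form gels, whereas Muc1, Muc4, Muc15, Muc16 and Muc20 span the membrane of epithelial cells. Trefoil factors are small disulphide-linked peptides secreted together with mucins. Agr2 and Agr3 belong to the protein disulphide isomerase family of the endoplasmic reticulum, and Agr2 is needed for the folding of intestinal mucin in mice and is known in human prostate cancer as a gene expressed by tumour cells.

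Agr2 and Agr3 are neighbours on chromosome 12 and lie in the same orientation. The 250 bases ahead of the start of each gene are shown because Agr2 differed between the genotypes by far more than any other member while the groups overlapped for Agr3. They are from RefSeq (build GRCm38.p6), on the + strand, at chr12:35992675-35992924 for Agr2 and chr12:35925371-35925620 for Agr3. Capitals mark a match to a forkhead core.
Agr2: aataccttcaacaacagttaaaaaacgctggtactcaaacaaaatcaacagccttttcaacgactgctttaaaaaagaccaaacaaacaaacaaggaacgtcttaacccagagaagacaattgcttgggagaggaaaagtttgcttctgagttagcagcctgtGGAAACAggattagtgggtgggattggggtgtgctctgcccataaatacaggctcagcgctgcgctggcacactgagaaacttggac
Agr3: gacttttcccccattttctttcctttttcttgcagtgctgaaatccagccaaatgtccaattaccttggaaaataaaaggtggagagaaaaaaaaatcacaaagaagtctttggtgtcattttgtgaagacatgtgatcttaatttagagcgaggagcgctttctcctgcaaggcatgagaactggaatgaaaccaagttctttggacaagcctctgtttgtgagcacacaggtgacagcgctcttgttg
The forkhead core searched, on both strands, was TGTTTNC, and the match ahead of Agr2 lies on the reverse strand from base -87 to -81 relative to the start. Such a match stood in 17.8% of 32851 RefSeq windows of this length and in 2 of the 6 members with a window (Agr2 and Muc20). Windows of Muc15 and Tff3 were not used here. An E2F core (TTTNNCGC, in 4.28% of windows) and an XBP1 core (GACGTG, 5.20%) had no match in the 6 windows. An androgen receptor half-site (AGAACA, 16.1%) matched ahead of Muc16, an ETS core (AGGAAG, 29.5%) ahead of Muc20, and a TATA box (TATAAA, 12.4%) ahead of Muc1 and Muc4. These matches overlap no other motif of the search and describe letters only.

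Agr2 was the member with a large difference between the genotypes. Its intensity in wild type ran from 1939.7 to 2342 with a median of 2096, and in the APT121 arrays it was 169, 195, 329 and 185 for replicates 1 to 4. All 4 APT121 values lay far below all 8 wild type values. On the log2 scale Agr2 went from 11.06 ± 0.11 in wild type to 7.72 ± 0.43 in APT121, a difference of -3.33, or 10.1-fold lower. In RNA of whole tissue, fewer cells of a type and less RNA per cell cannot be told apart. Of the 19935 genes, 20 had a more negative difference. The spread among APT121 arrays was 4.02 times that among wild type arrays, and replicate 3 was the highest of the 4. Without that array the difference was -3.54, and over all 25 alternative settings it stayed between -3.54 and -3.22.

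**Figure D1:**
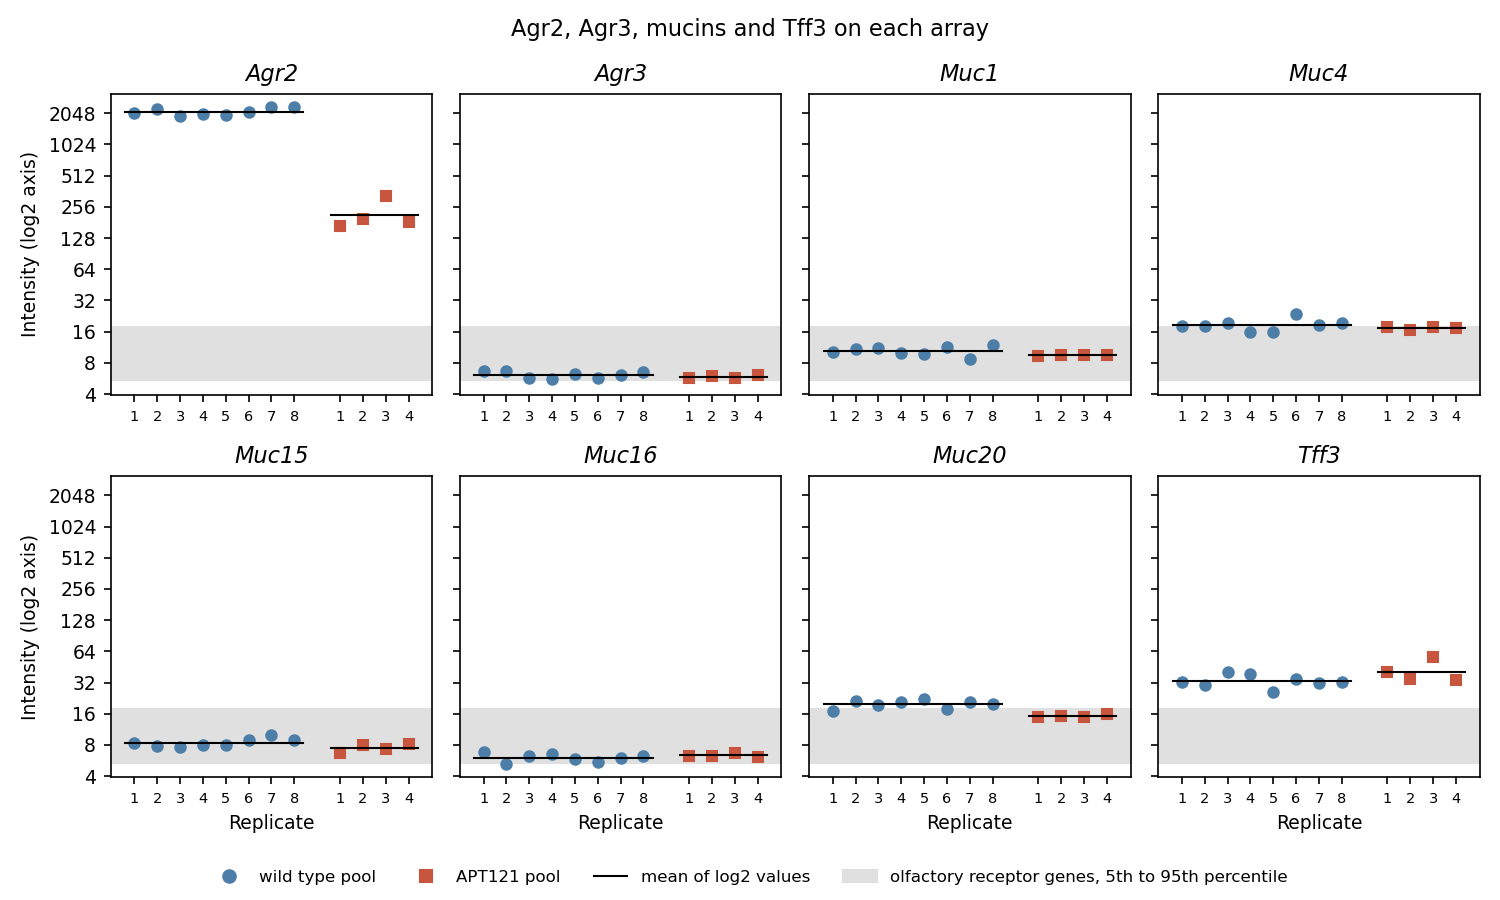
Intensity of each of the 8 genes on every array, on a log2 axis, with wild type pools as circles, APT121 pools as squares and the mean of the log2 values of each group as a line. Agr2 lies at 1939.7 to 2342 in wild type and 169 to 329 in APT121, while the other 7 genes stay between 5.29 and 57.0 on all arrays. The grey band of olfactory receptor genes runs from 5.42 to 17.6, and Tff3 (25.9 to 57.0) lies above it on every array.

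The other 7 members had intensities between 5.29 and 57.0 on every array, and their differences lay between -0.39 and 0.30. The wild type mean of each of them was below that of the median gene (5.38 on the log2 scale, an intensity of 41.6). Olfactory receptor genes, 1027 of them measured and most not known to be expressed in prostate, served as a picture of low values, a choice made after the values were seen. Their wild type intensities had a 5th percentile of 5.42, a median of 7.50 and a 95th percentile of 17.6. Agr3, Muc1, Muc15 and Muc16 lay inside that range, and Muc4, Muc20 and Tff3 lay above 95.5%, 96.3% and 99.1% of these genes. Clusters differ in how brightly their probes shine, so the range is a description and not a detection call, and expression of these 7 genes above background was not tested.

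Agr3, the paralogue beside Agr2, was measured at 5.60 to 6.73 in wild type (median 6.17) and at 5.77, 5.96, 5.68 and 6.15 in APT121. The groups overlapped, and the difference was -0.06. The large difference of Agr2 thus had no counterpart in the values of its neighbour, whose intensities lay in the low range where a difference is hard to measure.

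Among the membrane mucins, Muc20, which in human cells binds the receptor MET, was the one whose groups did not overlap. It read 17.2 to 22.2 in wild type (median 20.2) and 14.8, 15.1, 15.0 and 15.9 in APT121, a difference of -0.39 or 1.31-fold. With 16 added to each value before the log2, the difference became -0.20. Of all genes 14.1% had a more negative difference than Muc20, and of the olfactory receptor genes, most of them dimmer, 1.66%. Both shares are descriptions and not tests. Muc4, whose gene lies next to Muc20 on chromosome 16 and whose product binds ErbB2 in rat and human cells, read 15.9 to 23.6 in wild type (median 18.5) and 17.6, 16.6, 17.9 and 17.4 in APT121. All 4 APT121 values of Muc4 were inside the wild type range, and its difference was -0.10 as deposited and 0.00 after repeated quantile normalisation.

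Muc1, the widely studied epithelial surface mucin, read 8.78 to 11.8 in wild type (median 10.5). In APT121 it was 9.41, 9.54, 9.52 and 9.48, inside the wild type range, with a difference of -0.14. Muc15 was at 7.58 to 9.96 in wild type (median 8.18) and 6.63, 8.06, 7.37 and 8.19 in APT121, a difference of -0.16 with overlap. Muc16, the protein behind the CA125 antigen in human ovarian cancer, was at 5.29 to 6.92 in wild type (median 6.10) and 6.28, 6.27, 6.74 and 6.09 in APT121, with a difference of 0.07. For these 3 mucins the genotypes overlapped.

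Tff3, the trefoil peptide of intestinal goblet cells, was at 25.9 to 40.5 in wild type (median 32.5) and 40.4, 34.7, 57.0 and 34.2 in APT121. Only replicate 3 exceeded the wild type range. The difference of 0.30 became 0.13 without that array. Replicate 3 was the highest of the APT121 arrays for 4 of the 8 members, namely Agr2, Muc4, Muc16 and Tff3.

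Over the members, 6 of 8 means were lower and 2 higher in APT121, with a median difference of -0.12, beside -0.09 over all genes. The groups did not overlap for 2 members, both lower in APT121. Over all genes 34.6% did not overlap, 16.9% lower and 17.7% higher. Since this contrast chose the members, nothing is read from their count. The differences of the olfactory receptor genes had a median of -0.11 and ran from -0.30 to 0.04 between their 5th and 95th percentiles, and Agr3, Muc1, Muc4 and Muc15 had differences inside that range.

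**Figure D2:**
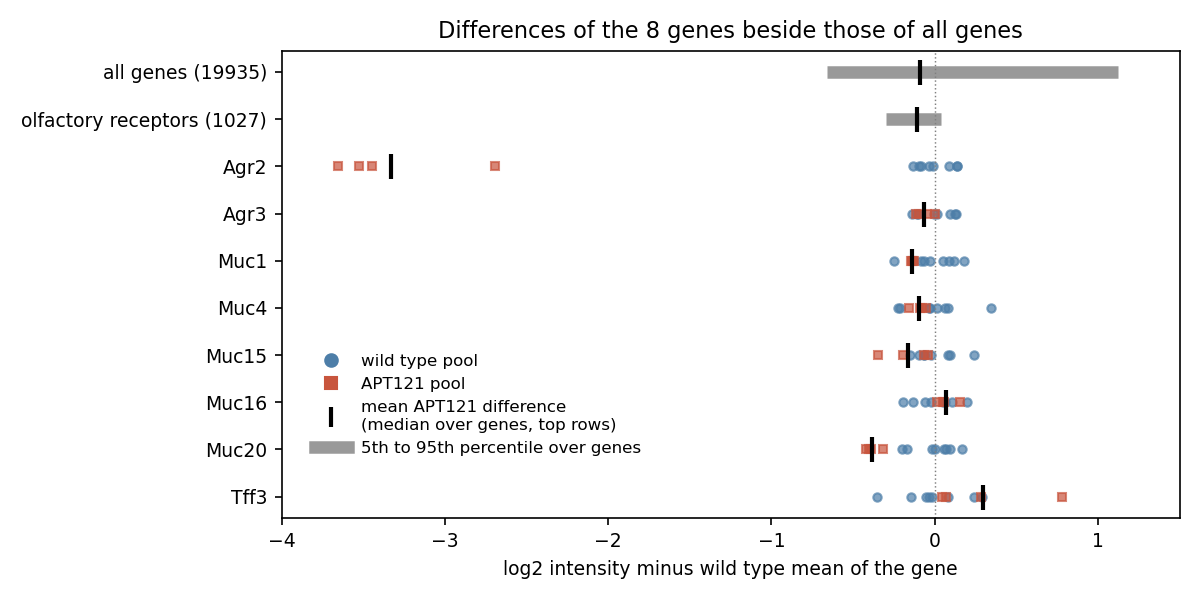
Each array's log2 intensity minus the wild type mean of the gene, for the 8 genes, with a black tick at the mean APT121 difference. The top rows give the 5th to 95th percentile (grey bar) and median of the differences of all 19935 genes (-0.66 to 1.12, median -0.09) and of 1027 olfactory receptor genes (-0.30 to 0.04). Agr2 at -3.33 stands far to the left, and the other means lie between -0.39 and 0.30.

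To ask whether members varied together within one genotype, the wild type arrays were compared. Over the 8 wild type arrays 44 relations were computed, 28 between members and 16 with the mean of the seminal vesicle or fat markers. None passed an adjusted p of 0.05 (exact permutation test of Pearson's r, two-sided, smallest adjusted p = 0.868), 2 had an unadjusted p under 0.05, and with Spearman's rho 0 passed and 1 had an unadjusted p under 0.05. Agr2 and Muc15 had r = 0.72 (exact permutation p = 0.0417) and rho = 0.76 (exact permutation p = 0.0368), and r was 0.29 without the 2 arrays farthest from the median of Agr2. Without wild type replicate 2 the same relation passed (r = 0.92, n = 7, exact permutation, adjusted p = 0.00873), so it rests on which array is kept. Muc4 rose with the seminal vesicle markers at r = 0.79 (exact permutation p = 0.0385) and rho = 0.45, and r was -0.07 without the 2 arrays of most distant Muc4 values. One of those is replicate 6, which held the highest Muc4 value (23.6) and a mean of the seminal vesicle markers of 8.51, where the other wild type arrays had 3.58 to 4.30. Agr2 in replicate 6 was 2112, within the range of the others.

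The 5 genes whose wild type pattern was most like that of Agr2, by Pearson's r over 8 arrays among 9966 genes brighter than the median gene, were Ssu72 (0.98), Emc2 (0.96), Stk25 (0.95), Rfxap (0.94) and Ap4b1 (0.94). With so many genes and 8 arrays such values are a description. Between the genotypes Ssu72, Emc2 and Stk25 were lower in APT121 by far less than Agr2 (-0.54 ± 0.07, -0.43 ± 0.07 and -0.43 ± 0.06; limma adjusted p = 7.39e-06, 7.30e-05 and 1.55e-05). Rfxap (0.07) and Ap4b1 (-0.11) did not pass.

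The genes beside the members, the nearest 2 measured genes on each side with members themselves passed over, were tested and numbered 24. Of these 11 fell and 2 rose, where over all genes 30.0% fell and 22.8% rose, with a median of -0.18 beside -0.09. Next to Agr2 and Agr3, Ahr, which encodes the aryl hydrocarbon receptor, fell by 0.45 ± 0.06 (adjusted p = 4.97e-06, limma). On the other side Tspan13, a tetraspanin, went from intensities of 3099.8 to 3799 in wild type to 2468, 2579.6, 2755 and 2409.9 in APT121, a difference of -0.42 ± 0.07 (adjusted p = 6.02e-05). Neither neighbour came near the difference of Agr2. Near Muc1, Krtcap2, a subunit of oligosaccharyltransferase, fell by 1.39 ± 0.08 (adjusted p = 7.64e-10), and beside Muc4 and Muc20 Rubcn rose by 0.45 ± 0.07 (adjusted p = 3.36e-05). Beside Tff3, the cholesterol exporter gene Abcg1 rose by 1.29 ± 0.08 (adjusted p = 2.71e-09).

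Among the mucins and trefoil factors outside the set, 12 of 17 listed were measured, and 5 fell, 1 rose and 6 did not pass, with a median of -0.21. Over all genes 30.0% fell and 22.8% rose, with a median of -0.09, and nothing particular to this list is read from its counts. The number that fell was 3 after repeated quantile normalisation and 8 with arrays centred on their medians. Endomucin (Emcn), a sialomucin of endothelium, fell by 1.06 ± 0.14 (adjusted p = 7.60e-06, limma), and 6 of 7 endothelial markers, Emcn among them, fell. Cd164, a sialomucin of many cell types, rose from intensities of 1335 to 1572 in wild type to 1810.2, 1976, 1746 and 1931 in APT121 (0.35 ± 0.06, adjusted p = 2.90e-04). The trefoil genes Tff1 (-0.35 ± 0.09, adjusted p = 0.00381) and Tff2 (-0.36 ± 0.11, adjusted p = 0.0114), which lie beside Tff3 on chromosome 17, fell. Muc5b (-0.26 ± 0.08, adjusted p = 0.0123) and Muc13 (-0.27 ± 0.08, adjusted p = 0.0118) fell too. Tff2, Muc5b and Muc13 lost the call in some settings, Tff2 without APT121 replicate 2 (adjusted p = 0.0504) or 4 (adjusted p = 0.0503), Muc5b without replicate 2 (adjusted p = 0.0688) and Muc13 without replicate 1 (adjusted p = 0.0581). After repeated quantile normalisation Muc5b (limma adjusted p = 0.0781) and Muc13 (limma adjusted p = 0.134) lost it too. Small falls also passed for 164 of the 1027 olfactory receptor genes, and 0 of those rose. Gel-forming Muc2 (-0.18, 95% interval -0.35 to -0.02), Muc5ac (-0.15, interval -0.31 to 0.01) and Muc6 (-0.24, interval -0.46 to -0.01) did not pass (adjusted p = 0.0566, 0.108 and 0.0720). Muc2 did pass without wild type replicate 1 (adjusted p = 0.0320), 2 (adjusted p = 0.0446) or 6 (adjusted p = 0.0377), and Muc6 without wild type replicate 2 (adjusted p = 0.00755) or APT121 replicate 3 (adjusted p = 0.0469). With arrays centred on their medians Muc2, Muc5ac and Muc6 all passed (limma adjusted p = 0.0159, 0.0372 and 0.0237), so these calls depend on the scaling.

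Of 23 genes of the protein disulphide isomerase family, to which Agr2 belongs, and its oxidases, all measured, 7 rose, 10 fell and 6 did not pass, with a median of -0.15. Calls in both directions were common over all genes too, of which 22.8% rose and 30.0% fell with a median of -0.09, and nothing particular to this list or to those that follow is read from their counts. Prdx4, a peroxiredoxin of the endoplasmic reticulum, rose from 90.9 to 125 in wild type to 496, 623, 638 and 427 in APT121 (2.32 ± 0.12, adjusted p = 1.65e-10, limma). Qsox1, which oxidises thiols of secreted proteins, rose by 1.98 ± 0.13 (adjusted p = 3.15e-09), and Txndc16, a thioredoxin-domain protein of the secretory pathway, by 1.79 ± 0.09 (adjusted p = 1.96e-10). In the other direction, the chaperone gene Erp29 fell by 0.69 ± 0.09 (adjusted p = 6.62e-06) and Pdia2 by 0.66 ± 0.17 (adjusted p = 0.00364), and the membrane-bound Tmx4 fell by 0.55 ± 0.08. Pdia2 was dim, at 14.1 to 25.7 in wild type and 10.2 to 15.0 in APT121, and its groups overlapped. Its difference ran from -0.96 to -0.33 over the settings. Txndc12, the closest relative of Agr2 and Agr3 in the family, fell by 0.35 ± 0.07 (adjusted p = 5.90e-04). No gene of this list fell by as much as 1 on the log2 scale.

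**Figure D3:**
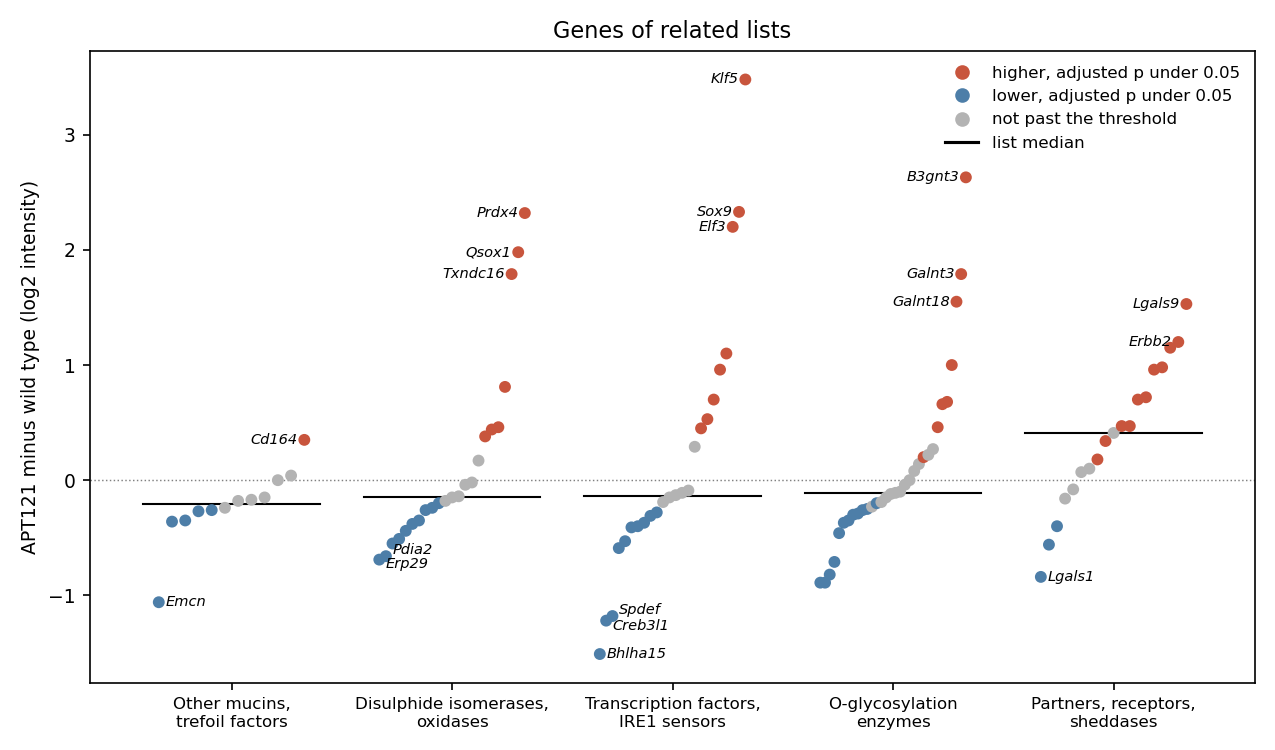
Difference between the genotypes (log2 intensity) for every measured gene of 5 lists related to mucins and Agr2, each point 1 gene, coloured by the limma call, with a line at the list median. The medians are -0.21, -0.15, -0.14, -0.11 and 0.41 from left to right, and Klf5 (3.48) and Bhlha15 (-1.51) are the outermost genes.

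Among 24 measured transcription factors and IRE1 sensors of mucous and secretory epithelium, 8 rose, 10 fell and 6 did not pass (median -0.14). The shares over all genes were 22.8% and 30.0%. Spdef, an ETS factor needed for goblet cells in mouse intestine and airway, fell from 245 to 345 in wild type (median 301) to 136, 104, 146 and 162 in APT121. The groups did not overlap (-1.18 ± 0.11, adjusted p = 2.08e-07, limma). Bhlha15, also called Mist1, which enlarges the secretory apparatus of exocrine cells, fell from 334 to 464 in wild type to 141, 147, 121 and 142 (-1.51 ± 0.09, adjusted p = 8.06e-10). Creb3l1, a membrane-bound factor of secretory cells, fell by 1.22 ± 0.11 (adjusted p = 8.79e-08). Foxa1, the forkhead factor that acts with the androgen receptor, rose from 716 to 812 in wild type to 1278, 1327, 1124 and 1411 (0.70 ± 0.07, adjusted p = 2.32e-07). Xbp1, the factor spliced by the IRE1 sensors, rose by 0.45 ± 0.06 (adjusted p = 8.61e-06). The largest rises of the list were those of Klf5 (3.48 ± 0.17), Sox9 (2.33 ± 0.08) and Elf3 (2.20 ± 0.16), factors of epithelial progenitor and barrier programmes, with adjusted p = 7.21e-11, 2.16e-12 and 8.89e-09. Foxa2 (-0.19, 95% interval -0.38 to 0.01) and Ern2, the IRE1 form of mucous epithelium (-0.15, interval -0.31 to 0.00), did not pass (adjusted p = 0.103 and 0.0914). Foxa2 passed without wild type replicate 1 (adjusted p = 0.0418) and Ern2 without APT121 replicate 4 (adjusted p = 0.0391). With arrays centred on their medians Foxa2 and Ern2 both passed (limma adjusted p = 0.0434 and 0.0312).

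Of 32 measured enzymes that build mucin-type O-glycans, 8 rose, 12 fell and 12 did not pass (median -0.11), shares near the 22.8% and 30.0% of all genes. B3gnt3, which extends core 1 glycans, rose by 2.63 ± 0.21 (adjusted p = 2.47e-08, limma), from 27.5 to 52.8 in wild type to 292, 208, 147 and 334 in APT121. Of the transferases of the GalNAc family that start the chains, Galnt3 (1.79 ± 0.16) and Galnt18 (1.55 ± 0.10) rose while Galnt16 (-0.89 ± 0.11) and Galnt7 (-0.82 ± 0.16) fell. Fut2, the fucosyltransferase of secretor status, fell by 0.89 ± 0.15 (adjusted p = 9.84e-05), with 1 APT121 value (597, replicate 2) above the lowest wild type value (589).

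Of 19 measured partners, receptors and sheddases of mucins, AGR2 and trefoil factors, 11 rose, 3 fell and 5 did not pass, with a median of 0.41. Over all genes 22.8% rose and 30.0% fell, with a median of -0.09, and no set test was run. Lgals9, a galectin that binds glycans, rose by 1.53 ± 0.13 (adjusted p = 5.29e-08, limma). Erbb2, the ErbB2 receptor gene, rose from 169 to 231 in wild type to 502, 487, 359 and 487 in APT121 (1.20 ± 0.10, adjusted p = 3.16e-08). Lgals3, a galectin that binds MUC1 in human cells, rose by 1.15 ± 0.12 (adjusted p = 5.46e-07). Met, the receptor bound by human MUC20, fell by 0.56 ± 0.07 (adjusted p = 3.87e-06) and Lgals1 fell by 0.84 ± 0.13 (adjusted p = 5.83e-05). Lingo2, a receptor component described for Tff3, fell by 0.40 ± 0.11 (adjusted p = 0.00731), from intensities no higher than 21.5, and did not pass against wild type replicates 1 to 4 alone (adjusted p = 0.0608).

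**Figure D4:**
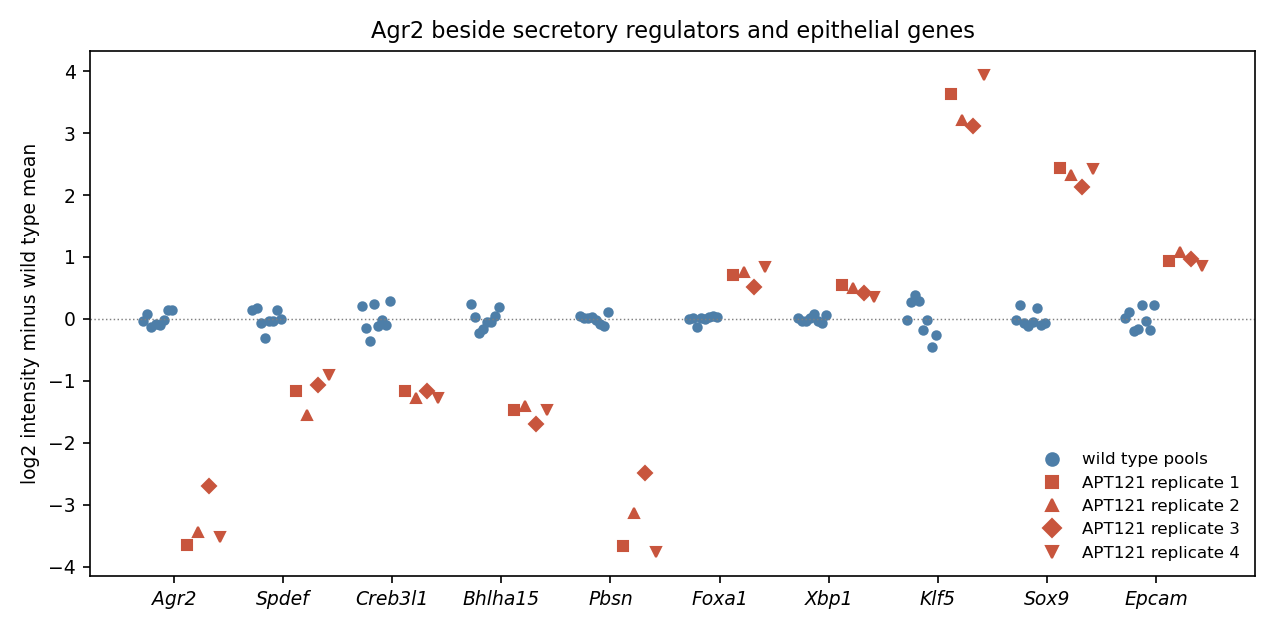
Log2 intensity minus the wild type mean of each gene, for Agr2 and 9 other genes, with wild type pools as circles and a symbol for each APT121 replicate. In both Agr2 and Pbsn replicate 3 is the highest APT121 array and replicate 2 the next, while replicates 1 and 4 change places. Other genes, not shown here, have the same leading arrays, so the order is a description. Foxa1, Klf5, Sox9 and Epcam lie above wild type on all 4 arrays.

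Markers of several cell types differed between the genotypes. Over all genes 22.8% rose and 30.0% fell, and nothing is read from the marker counts alone. Of 11 luminal epithelial markers 7 rose and 3 fell, and their mean lay between 10.36 and 10.49 in wild type and between 10.39 and 10.46 in APT121. Rises and falls offset each other in that mean, and the median difference of the list was 0.49. The epithelial adhesion gene Epcam, chosen for its values, read 1138 to 1535 in wild type and 2501, 2756, 2558 and 2362 in APT121. The luminal markers that fell were Pbsn, the protease gene Tmprss2 (-1.85 ± 0.09, adjusted p = 9.89e-11) and the homeobox gene Hoxb13 (-0.57 ± 0.07, adjusted p = 4.60e-06). Pbsn, which encodes the secretory protein probasin and was also chosen after its values were seen, was 6578 to 7676 in wild type and 557, 808, 1263 and 524 in APT121, with replicate 3 again the highest. Agr2 and Pbsn shared their highest and next APT121 arrays, replicates 3 and 2, and differed in the order of 1 and 4. Replicates 3 and 2 also led for Krtcap2 and Tspan13, which fell, and for Prdx4, which rose. No link between Agr2 and Pbsn is read from this order. All 6 measured markers of proximal luminal epithelium rose, their means being 5.58 to 6.15 in wild type and 9.07 to 10.25 in APT121. Of 7 basal markers 5 fell, Krt17 did not pass and the integrin gene Itgb4 rose by 1.43 ± 0.10 (adjusted p = 4.01e-09, limma), more than any of the 5 fell. All 7 smooth muscle markers and all 8 fat markers measured fell, and 6 of 7 myeloid markers rose. Seminal vesicle markers had means of 3.58 to 4.30 in 7 wild type arrays, 8.51 in wild type replicate 6 and 5.18 to 6.41 in APT121, so that every APT121 array lay above 7 of the 8 wild type arrays. Of these 10 markers 3 rose, Ceacam10 fell by 1.11 ± 0.44 (adjusted p = 0.0458, limma) and 6 did not pass. The 3 that rose were Svs2 (6.17 ± 1.26), Pate4 (5.43 ± 1.23) and Svs5 (5.10 ± 1.14). The median difference of the list was -0.42, so most of its genes did not share the higher mean in APT121. Markers of other mucous cells had low means. Intestinal goblet cell markers had means of 3.46 to 3.94 in wild type and 3.24 to 3.39 in APT121. Of these, 2 of 7 fell, Spink4 and Itln1. Itln1 varied widely among wild type arrays, at 4.66 ± 1.23 beside 3.27 ± 0.16 in APT121 (-1.39 ± 0.51, adjusted p = 0.0315, limma). Airway secretory markers had means of 3.02 to 3.18 in wild type and 3.00 to 3.10 in APT121. Of those, 0 of 6 passed in limma, and 0 had an unadjusted p under 0.05. Of 6 urothelial markers 3 rose, Upk3bl fell (-0.28 ± 0.09, adjusted p = 0.0216, limma) and 2 did not pass. Mesothelial markers, for cells known to express Muc16, fell for 2 of 6. The part of these shifts in the difference of Agr2 was not tested.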

How the data were processed

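Total RNA of anterior prostate, pooled from 2 mice per array, was measured in 4 APT121 and 8 wild type arrays. The deposited values are intensities on a linear scale, made by RMA per the submitters' processing notes; no source used here states the software version or genome build. Array medians ran from 32.1 to 33.7. Arrays have no read depth, so their number sets the precision. Log2 was taken here without a filter. Of 28815 clusters, 21780 had 1 symbol, and clusters with several (1605) or none (5430) were left out. For 998 genes with several clusters the cluster with the highest mean was used, leaving 19935 genes.

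The comparison used limma 3.58.1 (R 4.3.3) with genotype as its one term, two-sided at a threshold of 0.05, after the code was tested on simulated data. Its p-values reflect variation among pools, not among single mice. The members, lists and markers were chosen with earlier results of these data known. Genes named were the members, up to 3 risers and 3 fallers of each list, 13 set genes, flanking genes and the 5 nearest wild type patterns. Single genes of the marker lists were named outside this rule, with their values known. Wild type relations were tested by exact permutation. Alternatives covered scaling, low-value filters, an added 16, variance model, array weights, clusters, replicate block, subsets of arrays, a 1.5-fold minimum and, since the series design names SAM, a statistic of that type over 100 permutations of the arrays. Symbols were checked against RefSeq (GRCm38.p6).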

Additional observations from a re-analysis of the deposited data

Results flagged for a closer look

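Of 92 groups checked (46 genes, each in wild type and in APT121), 3 held an array far from the others by Dixon's criterion, which flags about 1 in 20 groups by chance. Erbb2 in APT121 replicate 3 was 359, where the other 3 arrays had 487 to 502. Foxa1 in wild type replicate 3 was 716, below the 781 to 812 of the other arrays. Muc5ac in APT121 replicate 2 was 13.0, against 15.0 to 15.3 in the other 3. None of the 8 members was among them.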

How the results depend on the processing

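Agr2 stayed between -3.54 and -3.22 in all 25 settings. Of 44 called genes named or flanking, 38 kept their call in every refit that held them. The 1.5-fold minimum was not counted there, and the low-value filters left some of these genes out. A minimum of 1.5-fold left 2288 genes higher and 1264 lower; for the lists in the order of the report it left 0 higher and 1 lower, 4 and 2, 6 and 4, 6 and 4, and 7 and 1, and for flanking genes 1 and 1. Without the lower 50% of genes, 3326 genes were lower, and 1 of the other mucins and trefoil factors, 5 transcription factors, 6 glycosylation enzymes and 6 flanking genes fell, since fewer genes were tested. The SAM-type statistic called 9346 genes lower. The number of other mucins and trefoil factors that fell was 9 with that statistic, 8 with arrays centred on their medians, 3 after repeated quantile normalisation, 2 against wild type replicates 1 to 4 alone and 3 to 8 leaving out each array in turn (3 without APT121 replicate 2 and 8 without wild type replicate 2); the cause was not tested. The wild type relations that passed numbered 0 to 1 when each array was left out in turn. With replicate number as a block 3 of those mucins and trefoil factors fell, and Muc5b (adjusted p = 0.0740), Muc13 (adjusted p = 0.0552), Zfp558 (adjusted p = 0.0649) and Mir680-3 (adjusted p = 0.0832) lost their call. In that fit wild type replicates 5 to 8, which have no APT121 array of the same number, do not inform the difference. It called 4027 genes higher and 4787 lower. Same-numbered arrays deviated together at r of 0.040, 0.044, 0.116 and -0.013, not each best with its own number, so the numbers were not taken as pairs. Repeated quantile normalisation, which moved the median olfactory receptor difference from -0.11 to -0.02, turned the sign for Agr3 (0.02), Muc4 (0.00), Ano3 (0.03), Mbd3l1 (0.02), Olfr1275 (0.04), Slc5a12 (0.04), Tnk2 (-0.11) and Umodl1 (0.06), none of them called. Olfr1275 also turned with the replicate block (0.03), against wild type replicates 1 to 4 alone (0.03) and without wild type replicates 5, 6 and 7 (0.02). Low signal limits all members except Agr2.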
